A study of Mus musculus with 6 samples.

Results

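A group of 10 genes was followed across 3 splenic cell populations: the costimulatory and coinhibitory ligands Cd80, Cd86, Cd274 (PD-L1), Pdcd1lg2 (PD-L2), Icosl and Tnfsf9 (4-1BB ligand), the receptors Cd40 and Btla, and the maturation markers Cd83 and Fscn1. Every probe annotated to one of these symbols was taken, which gave 18 probes for 10 of the 19057 named genes on the array. RNA came from the spleen of C57/B6 mice and was hybridised to Illumina bead arrays in 3 populations with 2 arrays each, namely macrophages and the CD8+ and the CD8- subset of conventional dendritic cells (cDC), 6 arrays in all. No treatment, age, sex or sorting scheme is given for these samples, and nothing says whether replicates came from separate animals, so a p-value here speaks only of how far these arrays spread. Levels are log2 signals of the deposited table, differences are on the same scale with their standard errors (SE), and n = 2 for every group mean and standard deviation (SD).

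A T cell that recognises antigen needs further signals from the presenting cell. Cd80 and Cd86 engage CD28 to activate and CTLA-4 to restrain, Icosl engages ICOS, and Tnfsf9 engages 4-1BB, whereas Cd274 and Pdcd1lg2 engage the inhibitory receptor PD-1. Signals back through Cd40, the receptor for CD40 ligand on helper T cells, raise many of these ligands during dendritic cell maturation, together with Cd83 and with Fscn1, the actin-bundling protein of dendrites. Btla is an inhibitory receptor of the CD28 family that binds the TNF receptor family member HVEM.

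A background level of 5.25 log2 was set from 1595 probes for genes such as olfactory receptors that are taken to be silent in spleen, and 15802 to 15827 probes lay above it on each array. The labelled cell types were checked on their markers. Zbtb46, a cDC transcription factor, read 6.17 and 6.47 on the macrophage arrays and 9.33 to 9.68 on the 4 cDC arrays, and Mertk, a macrophage receptor for dying cells, read 12.46 and 12.54 in macrophages and at most 7.09 in cDC. For the cDC marker Flt3, macrophages minus the mean of cDC was -0.52 (SE 0.43), where the median of 9 cDC markers was -3.25. Xcr1, the chemokine receptor of CD8+ cDC, read 10.10 and 10.02 there and at most 6.31 elsewhere. Of 12 markers of CD8+ cDC, 11 had a higher mean there than in CD8- cDC, and Batf3 did not (difference -0.03). Cadm1, another of them, averaged 11.82 in macrophages and 11.69 in CD8+ cDC. The Cd8a probe itself was above background on 1 of 6 arrays, at 5.67 in CD8+ cDC replicate 1 and 4.96 in replicate 2. The mean level of 12 markers of CD8- cDC was 9.78 and 9.90 in that population. It was 8.08 and 8.14 in CD8+ cDC and 8.06 and 7.58 in macrophages. Macrophages exceeded CD8- cDC in 2 of these 12, among them Sirpa (14.18 against 13.42). CD8+ cDC also exceeded CD8- cDC in 2, among them Clec10a (9.51 against 9.04). The arrays of one population were not alike in the markers of the others. The mean level of 9 cDC markers was 8.13 in macrophage replicate 1 and 7.08 in replicate 2, and that of 15 macrophage markers was 6.35 and 8.22 in CD8+ cDC and 8.20 and 6.55 in CD8- cDC, against 12.41 and 12.69 in macrophages. The 11 measured T cell markers had a higher mean on every array numbered 1 (5.93 to 6.47) than on any array numbered 2 (4.86 to 5.29). That of 10 neutrophil and monocyte markers was 6.80 in macrophage replicate 1, 5.58 in macrophage replicate 2 and 5.02 to 5.58 in cDC.

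**Figure D1:**
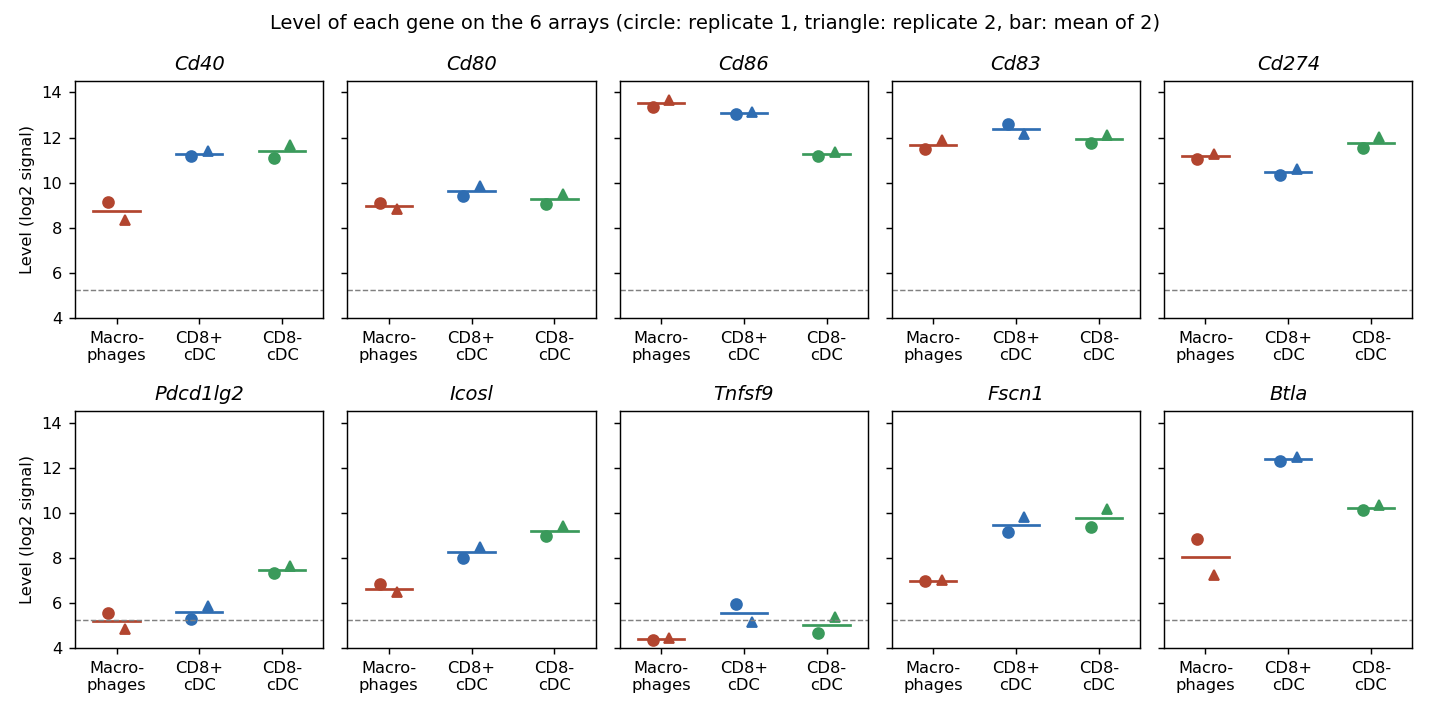
Level of each of the 10 genes (log2 signal, vertical axis) by its brightest probe on the 2 arrays of each population. Circles are replicate 1, triangles replicate 2, bars the mean of 2 and the dashed line the background level of 5.25. Cd40, Icosl, Fscn1 and Btla lie lower on both macrophage arrays than on all cDC arrays, and Cd86 lies higher.

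Macrophages and cDC differed in the levels of several of these genes. Against the mean of both cDC groups, Cd40, Icosl, Fscn1 and Btla were lower in macrophages, by log2 differences between -2.08 and -3.27, and Cd86 was higher by 1.36. The other 5 genes did not pass the test, an adjusted p under 0.05 by limma over all 45281 probes. Thus 5 of 10 genes were called, where 15.4% of all named genes were. That share includes many genes near background. When only probes with a mean above background were tested, 36.1% of 8927 genes were called. The median difference over the 10 genes was -1.12 and over all named genes 0.00. Whether a bulk level is lower because fewer cells express a gene or because each cell holds less of its RNA cannot be told apart in these data. Fewer of the 10 genes were called without macrophage replicate 2, and fewer of all named genes as well. On non-overlap alone, 1 gene was higher and 5 were lower on both macrophage arrays than on every cDC array, where 16.8% and 16.2% of all named genes were.

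Taken one cDC group at a time, 4 of the 10 genes were lower than in CD8+ cDC (Cd40, Icosl, Fscn1 and Btla) and 0 higher, where 11.8% of all named genes were called, 5.25% on the lower side and 6.55% on the higher. Against CD8- cDC, 4 were lower (Cd40, Icosl, Fscn1 and Pdcd1lg2) and Cd86 was higher, where 13.1% of all named genes were called, 5.93% lower and 7.14% higher. When only probes with a mean above background were tested, 29.5% of 8927 genes were called against CD8+ cDC and 31.4% against CD8- cDC. These contrasts share the macrophage arrays and are not independent. Groups did not overlap for 2 higher and 7 lower genes against CD8+ cDC (25.0% and 25.1% of all named genes) and for 1 higher and 7 lower genes against CD8- cDC (26.2% and 25.9%). Against CD8+ cDC, fewer of the 10 genes were called when any array of macrophages or of CD8+ cDC was left out. Against CD8- cDC, the same held for either CD8- cDC array. In each of these fits fewer of all named genes were called too, so the loss is not particular to the 10.

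Cd40 read 9.13 and 8.33 in macrophages, 11.17 and 11.41 in CD8+ cDC and 11.11 and 11.67 in CD8- cDC. Both macrophage arrays were below all 4 cDC arrays, and the cDC groups overlapped. The difference from the mean of cDC was -2.61 (SE 0.29, 6.09-fold lower, adjusted p = 0.00873), and it was called without each array in turn, at -2.20 to -3.01. Between CD8+ and CD8- cDC it was -0.10, with a 95% confidence interval of -0.96 to 0.76 that allows differences of either sign. Intervals here are limma's and are not adjusted for the number of probes. Of 5 Cd40 probes, all 5 were lower in macrophages than in cDC and 3 were called. The next brightest probes gave -2.65 (adjusted p = 0.0105) and -1.76 (adjusted p = 0.00859). The dimmest read 4.47 to 5.31, above background on 1 array, and differed by -0.47 without a call. The macrophage array with the higher Cd40 level was replicate 1, which also had the higher cDC marker level, and the part of one in the other was not tested.

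**Figure D2:**
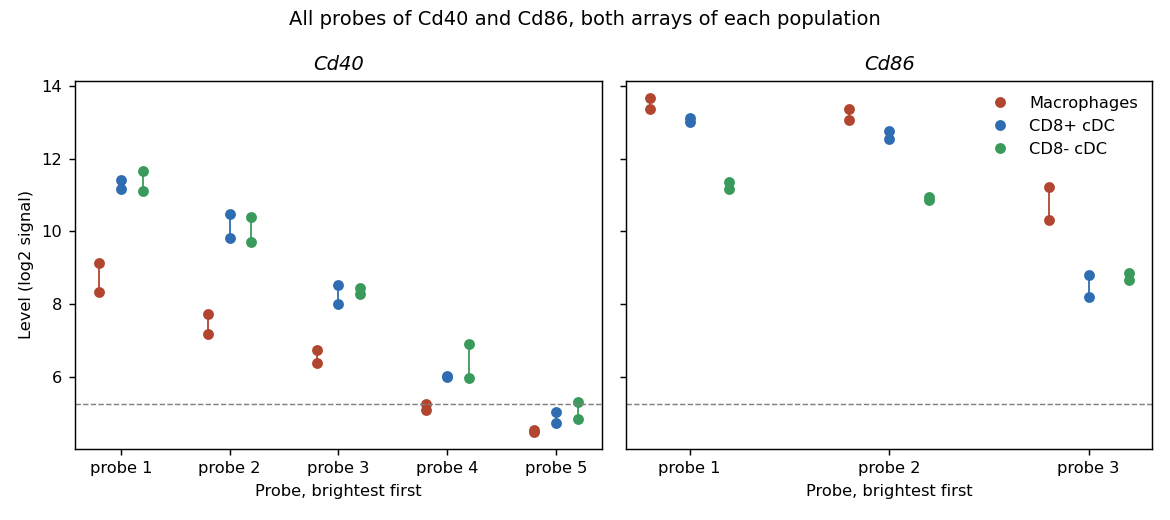
Log2 level (vertical axis) of all 5 Cd40 probes and all 3 Cd86 probes, ordered by mean level, with both arrays of each population joined by a line; the dashed line is the background level of 5.25. All Cd40 probes read lower in macrophages, whereas for Cd86 the 2 brighter probes place CD8+ cDC well above CD8- cDC and the dimmest places both cDC groups together.

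Fscn1 gave 6.98 and 7.01 in macrophages, 9.15 and 9.81 in CD8+ cDC and 9.37 and 10.17 in CD8- cDC. The macrophage arrays nearly coincided and lay well under both cDC groups, which overlapped. Against the mean of cDC the difference was -2.63 (SE 0.30, 6.20-fold lower, adjusted p = 0.00915), and adjusted p = 0.0621 without macrophage replicate 2. In the comparison of CD8+ with CD8- cDC it was -0.29 (interval -1.18 to 0.60), not called. In both cDC groups replicate 2 was the higher array, by 0.67 and 0.80.

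The ICOS ligand Icosl was graded over the 3 populations. Its bright probe read 6.83 and 6.48 in macrophages, 8.01 and 8.50 in CD8+ cDC and 8.99 and 9.42 in CD8- cDC, with no overlap between any 2 groups. Against the mean of cDC the difference was -2.08 (SE 0.22, 4.22-fold lower, adjusted p = 0.00763), with adjusted p = 0.0517 when macrophage replicate 2 was left out. The step from CD8+ to CD8- cDC did not pass the test (CD8+ minus CD8- cDC -0.95, interval -1.60 to -0.31, adjusted p = 0.222). A second probe read 4.62 to 5.09, at background on all 6 arrays, so gave no measurable level.

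Btla had the largest difference from cDC among the 10 genes. It read 8.83 and 7.25 in macrophages, 12.28 and 12.47 in CD8+ cDC and 10.12 and 10.34 in CD8- cDC. The populations did not overlap, and the macrophage arrays differed from each other by 1.58. Macrophages were lower than the mean of cDC by a log2 difference of -3.27 (SE 0.45, 9.63-fold, adjusted p = 0.0156). The call was lost without any 1 of the 4 cDC arrays (adjusted p 0.0569 to 0.0614), while without macrophage replicate 1 the difference was -4.06 and without replicate 2 -2.48. Against CD8+ cDC alone it was -4.34 (20.3-fold lower, adjusted p = 0.0134), with adjusted p = 0.0788 and 0.0824 without CD8+ cDC replicate 1 and 2. Against CD8- cDC the difference was -2.19 and not called (adjusted p = 0.0762). It was -2.98 without macrophage replicate 1 and -1.40 without replicate 2. In both of these fits the spread between the macrophage arrays does not enter, so they do not bear on the missing call.

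Btla is also known from B and T cells, so their markers are given beside it. Of 10 measured B cell markers, macrophages had 1 above (Fcer2a) and 0 below the mean of cDC by limma, where 8.22% and 7.21% of all named genes were called. At an unadjusted p under 0.05 there was 1 on each side. Between the cDC groups 0 of 10 were called, where 2.04% of all named genes were, and at an unadjusted p under 0.05 there were 4 higher and 1 lower in CD8+ cDC. The median difference was 0.59 and 9 of the 10 differences were above 0 in CD8+ cDC, the population with the highest Btla level. Their summed linear signal was 3348 and 2008 in macrophages, 6908 and 3995 in CD8+ cDC and 3456 and 2209 in CD8- cDC. It was higher in replicate 1 of every population, whereas Btla was higher in replicate 1 only in macrophages. The B cell factor Pax5 was at background on all 6 arrays. Others of the list, chosen after their values were seen, were well above it. Cd79b, part of the B cell receptor, read 9.64 to 11.40 over all arrays. Fcrla, an Fc receptor-like protein, read 9.19 and 6.91 in macrophages, 11.36 and 11.02 in CD8+ cDC and 8.37 and 7.83 in CD8- cDC (CD8+ minus CD8- cDC 3.10, SE 0.76, adjusted p = 0.195). Summed T cell marker signal was 1488 and 340.3 in macrophages and 429.4 to 986.6 in cDC. The mean level of 10 measured markers of plasmacytoid dendritic cells was 8.37 and 7.46 in macrophages, 9.44 and 8.48 in CD8+ cDC and 8.30 and 8.39 in CD8- cDC. The part of B cell, T cell or plasmacytoid dendritic cell RNA in the Btla levels was not tested.

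RefSeq promoter windows of GRCm38.p6 were available for 6 of the 10 genes, Cd80, Cd274, Pdcd1lg2, Icosl, Fscn1 and Btla. Those of the 3 called genes with an entry that were lower in macrophages are shown as the 250 bases before the annotated start, all on the plus strand, with motif matches in capitals. The Fscn1 window is chr5:142960105-142960354, that of Icosl chr10:78069118-78069367 and that of Btla chr16:45224087-45224336.
Fscn1: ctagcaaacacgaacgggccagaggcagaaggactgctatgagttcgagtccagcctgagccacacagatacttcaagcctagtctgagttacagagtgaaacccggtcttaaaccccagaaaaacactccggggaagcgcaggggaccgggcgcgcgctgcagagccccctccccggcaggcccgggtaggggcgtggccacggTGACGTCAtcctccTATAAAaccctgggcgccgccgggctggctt
Icosl: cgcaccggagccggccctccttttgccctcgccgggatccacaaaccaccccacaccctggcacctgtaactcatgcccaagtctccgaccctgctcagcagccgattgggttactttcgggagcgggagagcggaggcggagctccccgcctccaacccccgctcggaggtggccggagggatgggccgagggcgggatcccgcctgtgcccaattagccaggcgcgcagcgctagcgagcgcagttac
Btla: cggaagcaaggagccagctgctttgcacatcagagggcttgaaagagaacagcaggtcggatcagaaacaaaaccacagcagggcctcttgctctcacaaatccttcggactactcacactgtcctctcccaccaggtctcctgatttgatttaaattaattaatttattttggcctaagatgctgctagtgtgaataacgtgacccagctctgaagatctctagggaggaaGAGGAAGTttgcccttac

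The capitals mark a cyclic AMP response element (TGACGTCA) and a TATA box (TATAAA) before Fscn1, and a PU.1 motif (GAGGAAGT) before Btla. Searched on both strands in 32851 such windows, these letters occurred in 1.55%, 12.4% and 2.44% of them. The Icosl window held none of the 8 motifs searched. The others were the AP-1 motif TGANTCA, the E-box CACGTG, the interferon-stimulated response element and a looser and a stricter form of the NF-kB motif, every stricter match being also a looser one. Neither NF-kB form, as spelled for the search, was in any of the 6 windows, where 4.65% of all windows held the looser and 1.41% the stricter. Both forms fix the closing letters of the motif, and wider spellings were not searched. Their absence therefore does not show that these windows lack an NF-kB motif. AP-1 was found before Cd80, as in 6.75% of windows. A match is a run of letters and not a measured binding site.

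Of the B7 ligands Cd80 and Cd86, Cd86 was called and Cd80 was not, in any contrast with all arrays. Cd86 was the one gene of the 10 that was higher in macrophages. It gave 13.36 and 13.68 in macrophages, 13.02 and 13.12 in CD8+ cDC and 11.16 and 11.35 in CD8- cDC. CD8- cDC lay far below the other populations, and macrophages lay just above CD8+ cDC without overlap. The difference of macrophages from the mean of cDC was 1.36 (SE 0.13, adjusted p = 0.00599), and it was called without each array in turn. Against CD8- cDC it was 2.27 (SE 0.15, 4.82-fold higher, adjusted p = 0.00321), also called without each array, and against CD8+ cDC 0.45 (interval 0.07 to 0.83, adjusted p = 0.174), not called.

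The 3 probes of Cd86 did not all give this order. The second probe followed the first, at 13.07 and 13.38, 12.53 and 12.76, and 10.85 and 10.94 in macrophages, CD8+ cDC and CD8- cDC. The dimmest probe read 11.21 and 10.30 in macrophages, 8.19 and 8.80 in CD8+ cDC and 8.67 and 8.86 in CD8- cDC. All 3 were called on the higher side against the mean of cDC, but by the dimmest probe macrophages also exceeded CD8+ cDC (2.26, adjusted p = 0.0284, and adjusted p = 0.0473 with the replicate block). With the mean of the 3 probes as the level of Cd86, macrophages were called higher than CD8+ cDC as well (1.10, adjusted p = 0.0126). In CD8- cDC the array with the higher mean of macrophage markers (8.20 against 6.55) had the lower Cd86 level, 11.16 against 11.35, and in CD8+ cDC the array with the higher mean (8.22 against 6.35) had the higher one, 13.12 against 13.02. The part of macrophage RNA in these levels was not tested.

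Cd80 varied far less. It read 9.09 and 8.85 in macrophages, 9.43 and 9.86 in CD8+ cDC and 9.06 and 9.51 in CD8- cDC. Macrophages overlapped with CD8- cDC and lay just under CD8+ cDC. The difference from the mean of cDC was -0.50 (SE 0.20, interval -1.01 to 0.01, adjusted p = 0.237). A second Cd80 probe at 4.67 to 5.62 was below background on both macrophage arrays and gave no measurable difference there.

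**Figure D3:**
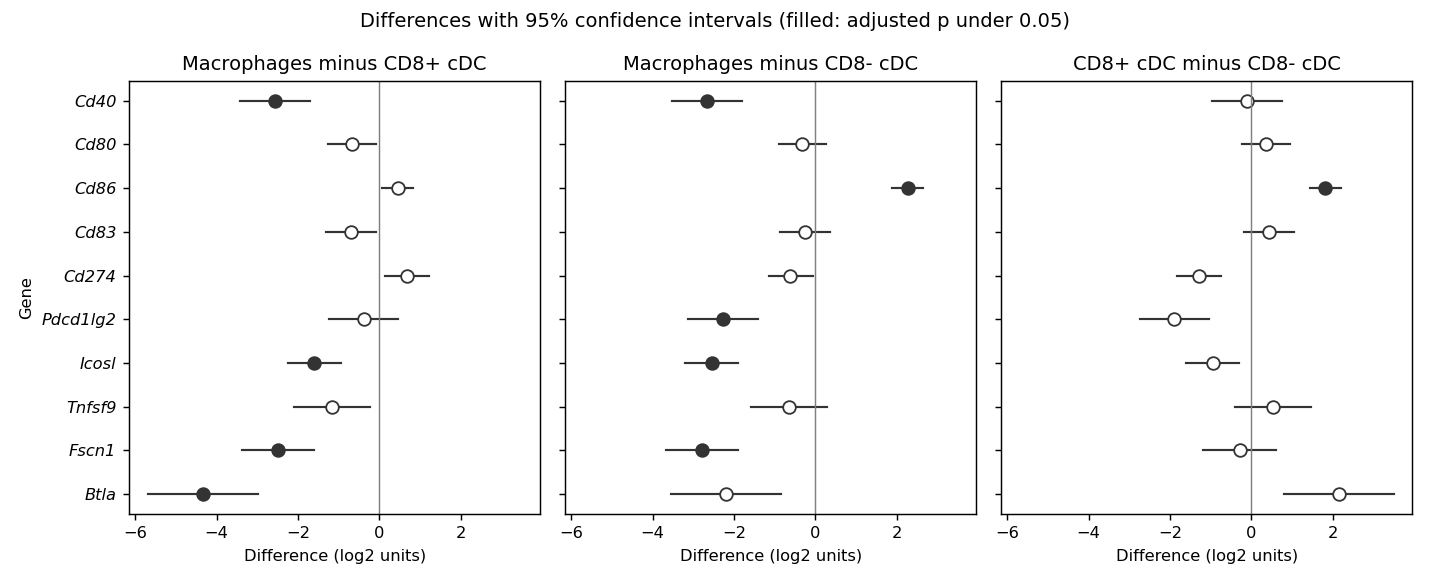
Differences between populations for each of the 10 genes (log2 units, horizontal axis), with limma's 95% confidence intervals not adjusted for the number of probes. Filled circles passed an adjusted p under 0.05, of which 4 lie left of 0 in the panel against CD8+ cDC, 4 left and 1 right in the panel against CD8- cDC, and 1 in the panel of the cDC groups.

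Between CD8+ and CD8- cDC 1 of the 10 genes was called, Cd86, where 2.04% of all named genes were. It was higher in CD8+ cDC by 1.81 (SE 0.15, 3.52-fold, adjusted p = 0.0206). Without any 1 of the 4 cDC arrays, the difference was 1.72 to 1.91 and limma called 0 of the 19057 named genes in this contrast, with 2310 to 2663 at an unadjusted p under 0.05, so the loss of the Cd86 call there (adjusted p 0.112 to 0.139) is not particular to it. The second Cd86 probe gave 1.75 (adjusted p = 0.0219), and the dimmest gave -0.27 (interval -1.21 to 0.67), so this result rests on the 2 brighter probes. In 6 of 10 genes the 2 cDC groups did not overlap, 3 higher and 3 lower in CD8+ cDC, where 21.1% of all named genes were non-overlapping on the higher side and 21.4% on the lower. The median difference was 0.13 over the 10 genes and 0.00 over all.

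Btla was 2.15 higher in CD8+ cDC (SE 0.52, 4.44-fold, interval 0.80 to 3.50), and did not pass the test with all arrays (adjusted p = 0.188). A fit on the 4 cDC arrays alone, in which the spread of the macrophage arrays does not enter, called it at adjusted p = 0.0397. So did a test of only those probes with a mean above background (adjusted p = 0.0399).

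Both PD-1 ligands had lower levels in CD8+ than in CD8- cDC, by differences that did not pass the test. Cd274 read 11.04 and 11.28 in macrophages, 10.34 and 10.62 in CD8+ cDC and 11.52 and 12.01 in CD8- cDC. No 2 populations overlapped, with CD8+ cDC lowest and macrophages between the cDC groups. CD8+ minus CD8- cDC was -1.29 (SE 0.21, interval -1.83 to -0.74, adjusted p = 0.0777), macrophages minus CD8+ cDC 0.68 (adjusted p = 0.157) and macrophages minus CD8- cDC -0.61 (adjusted p = 0.192). None of these passed, and with the replicate number as a block all of them did, at adjusted p = 0.0352, 0.0383 and 0.0469. In each population replicate 2 had the higher level, by 0.24 to 0.49.

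Pdcd1lg2 was detected clearly in CD8- cDC only. It read 5.58 and 4.85 in macrophages, 5.30 and 5.89 in CD8+ cDC and 7.33 and 7.65 in CD8- cDC. Macrophage replicate 2 was at background, CD8+ cDC replicate 1 was barely above it, and these populations overlapped. Against CD8- cDC macrophages were lower (log2 difference -2.27, SE 0.33, at least 4.20-fold with the array at background counted at that level, adjusted p = 0.0201). The call was lost without CD8- cDC replicate 1 (adjusted p = 0.0849), CD8- cDC replicate 2 (adjusted p = 0.114) or macrophage replicate 2 (adjusted p = 0.0655). CD8+ minus CD8- cDC was -1.89 (SE 0.33, interval -2.74 to -1.04, adjusted p = 0.0887) and not called. When only probes with a mean above background were tested, both this difference (adjusted p = 0.0182) and that of Cd274 (adjusted p = 0.0295) passed.

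Cd274 and Pdcd1lg2 are neighbouring genes on chromosome 19, with no other protein-coding gene listed between them. Their upstream windows are given because the levels of both genes were lowest or near background in CD8+ cDC and highest in CD8- cDC, namely chr19:29367188-29367437 and chr19:29410669-29410918 on the plus strand of GRCm38.p6. Neither held any of the 8 motifs in the spellings searched, hence no capitals.
Cd274: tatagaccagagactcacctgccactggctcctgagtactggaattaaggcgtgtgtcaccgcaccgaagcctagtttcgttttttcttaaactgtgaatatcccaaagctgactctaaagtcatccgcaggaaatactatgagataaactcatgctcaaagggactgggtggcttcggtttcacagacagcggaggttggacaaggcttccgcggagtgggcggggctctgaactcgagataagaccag
Pdcd1lg2: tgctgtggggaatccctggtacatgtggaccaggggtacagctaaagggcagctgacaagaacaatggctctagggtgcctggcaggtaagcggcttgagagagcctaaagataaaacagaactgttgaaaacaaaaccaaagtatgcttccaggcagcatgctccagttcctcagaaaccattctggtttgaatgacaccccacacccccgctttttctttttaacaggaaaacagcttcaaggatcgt

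The maturation marker Cd83 was strong in all populations. Its level was 11.50 and 11.87 in macrophages, 12.61 and 12.14 in CD8+ cDC and 11.76 and 12.12 in CD8- cDC. Macrophages overlapped with CD8- cDC, and CD8+ cDC stood barely above both. Macrophages minus the mean of cDC was -0.48 (SE 0.20, adjusted p = 0.279), so Cd83 did not show the gap that Fscn1 did, although the difference between these genes was not tested. Tnfsf9 was near background throughout, at 4.36 and 4.45 in macrophages, 5.98 and 5.16 in CD8+ cDC and 4.68 and 5.40 in CD8- cDC. Only 1 array of each cDC group was above background, and the difference of macrophages from cDC (-0.90, SE 0.31, adjusted p = 0.174) was not called.

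Cd83 and Tnfsf9 are among the genes that cells can induce while being isolated, so the replicate arrays were set beside 29 immediate early and stress genes. The mean level of that list was 9.44 and 8.53 in macrophages, 10.20 and 9.18 in CD8+ cDC and 9.40 and 9.58 in CD8- cDC. In CD8+ cDC replicate 1 was the higher array for the list, for Cd83 (by 0.47) and for Tnfsf9 (by 0.82). In CD8- cDC replicate 1 was lower for the list, for Cd83 (-0.36) and for Tnfsf9 (-0.72). In macrophages the list was higher in replicate 1 and Cd83 lower (-0.37), and Tnfsf9 was at background. The part of isolation in either gene was not tested.

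The genes with the most similar pattern over the 6 arrays were found among 5152 genes that spanned at least 1 log2 unit, by Pearson correlation, given as a description since all points share 3 populations. For Cd40 they were Cep83, Inip and Csprs (r = 0.999, 0.999 and 0.998), and for Fscn1 the protease inhibitor Spint1 (0.998), the phosphatase Pdxp (0.997) and the phospholipase Pla2g4f (0.996). For Icosl they were Arpp19 (0.998), Cep57l1 and the melanosome regulator Mreg (both 0.994). Btla was followed by the semaphorin Sema4a (0.998), Ppp2r3c and Ncaph2 (both 0.997). Cd86 went with Rab39, the calcium-binding S100a1 and Tanc1 (all 0.994), and Cd274 with Dnajc27 (0.993), the inositol trisphosphate receptor Itpr3 (0.990) and Ceacam16 (0.988). Pdcd1lg2 went with the growth factor midkine, Mdk (0.998), Ctnnd2 (0.997) and the TNF family ligand Tnfsf14 (LIGHT, 0.992), which also binds HVEM. For Cd83 they were Micall1 (0.963), Bcr (0.952) and Tnfsf9 itself (0.950), for Tnfsf9 Slc1a5 (0.982), Zfp36l1 (0.967) and Rad9b (0.965), and for Cd80 Dnajc10 (0.987), Mier2 (0.982) and Gsdmc2 (0.964).

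Within the group, Cd40 and Fscn1 correlated at r = 0.974 over the 6 arrays, Icosl and Fscn1 at 0.955, and Cd40 and Icosl at 0.936. Cd86 ran opposite to Pdcd1lg2 (-0.964) and to Icosl (-0.862). Cd274 correlated with Pdcd1lg2 at 0.709 and with Cd40 at 0.018. These values describe how levels lay over 3 populations with 2 arrays each, and carry no test.

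Other costimulatory and coinhibitory genes split in both directions. Of 35 measured genes of a list of such ligands and regulators, macrophages had 7 above and 7 below the mean of cDC, where 8.22% and 7.21% of all named genes were. The median difference was 0.09, and 26 of the 35 genes were above background on at least 2 arrays. Without macrophage replicate 2 fewer genes of this list, and fewer of all named genes, were called. Among the lower genes, Sema4a, a semaphorin that costimulates T cells, read 9.21 and 8.02 in macrophages, 12.47 and 12.69 in CD8+ cDC and 10.56 and 10.59 in CD8- cDC (difference -2.96, SE 0.34, adjusted p = 0.00964). Havcr2 (TIM-3), an inhibitory receptor, read 9.86 and 9.83 in macrophages, 12.26 and 12.39 in CD8+ cDC and 11.35 and 11.60 in CD8- cDC (-2.05, SE 0.10, adjusted p = 0.00161). Sema4d was lower by a difference of -1.85 (adjusted p = 0.00866). Among the higher genes was Nectin2, a ligand of DNAM-1 and PVRIG, at 6.35 and 7.24 in macrophages and 4.55 to 5.20, all at background, in cDC (at least 2.91-fold higher, adjusted p = 0.0218).

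Between the cDC groups, 2 of these 35 genes were higher in CD8+ cDC and 0 lower, where 1.29% and 0.756% of named genes were. The tryptophan-degrading enzyme Ido1, which restrains T cells, read 7.49 and 7.46 in CD8+ cDC and 4.44 to 5.12 on the other 4 arrays, all at background (at least 4.66-fold higher than in CD8- cDC, adjusted p = 0.0169). Il15, a cytokine that sustains memory CD8+ T cells, read 10.81 and 10.96 in macrophages, 10.41 and 10.56 in CD8+ cDC and 8.32 and 8.87 in CD8- cDC (CD8+ minus CD8- cDC 1.89, SE 0.20, adjusted p = 0.0341). Tnfsf14 was lower in macrophages than in CD8- cDC (-2.59, at least 4.96-fold, adjusted p = 0.0179), with levels of 5.59 and 4.68 against 7.50 and 7.96.

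A list of 32 measured dendritic cell maturation genes had 12 members lower in macrophages and 0 higher by limma, where 7.21% and 8.22% of all named genes were, and the median difference was -0.74 against 0.00 over all. At an unadjusted p under 0.05 there were 17 lower and 1 higher. When either CD8+ cDC array was left out, fewer genes of this list, and fewer of all named genes, were called. Traf1, an adaptor of Cd40 and related receptors, read 8.54 and 7.64 in macrophages, 11.13 and 11.60 in CD8+ cDC and 11.54 and 11.91 in CD8- cDC (-3.46, SE 0.31, adjusted p = 0.00537). Ccr7, the receptor that guides mature dendritic cells to T cell zones, read 6.14 and 5.58 in macrophages, 10.04 and 9.15 in CD8+ cDC and 8.71 and 8.57 in CD8- cDC (-3.26, SE 0.30, adjusted p = 0.00587). The chemokine Ccl5 (-3.13, adjusted p = 0.016) and Tnfrsf4 (OX40, -2.38, adjusted p = 0.00163) were lower as well. Not all of the list was detected, with 25 of the 32 genes above background on at least 2 arrays. Lamp3 (4.34 to 4.62) and Ccl22 (4.48 to 4.87), for example, were at background on every array, those of cDC included. In the comparison of the cDC groups Serpinb6b was higher in CD8+ cDC (2.82, adjusted p = 0.0482) and Stat4 lower (-1.54, adjusted p = 0.0331), and the other 30 genes were not called, where 1.29% and 0.756% of all named genes were higher and lower.

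Of 18 measured genes of CD40 and NF-kB signalling, 6 were lower and 0 higher in macrophages, where 7.21% and 8.22% of all named genes were. The median was -0.56 against 0.00 over all. At an unadjusted p under 0.05 there were 11 lower and 0 higher. Inhibitors of NF-kB are part of the list, and the inhibitor Nfkbia was among the 6 (-0.78, adjusted p = 0.0438, and adjusted p = 0.0701 with the replicate block). Traf1, Relb, Nfkb2, Birc3 and Tnfaip3 stand in both this and the maturation list, so the lists are not independent. The maturation list also shares Ccr7 with the cDC markers, Cd200 with the costimulation list and Spib with the plasmacytoid dendritic cell markers. Relb, the subunit of the alternative NF-kB pathway, read 8.87 and 9.23 in macrophages, 9.74 and 10.27 in CD8+ cDC and 11.51 and 11.64 in CD8- cDC (-1.74, SE 0.19, adjusted p = 0.00888). Rel (-1.73, adjusted p = 0.0398, and adjusted p = 0.0611 with the replicate block) and the kinase Map3k14 (NIK, -1.05, adjusted p = 0.00508) were also lower. When either macrophage array or CD8- cDC replicate 2 was left out, fewer genes of this list, and fewer of all named genes, were called lower in macrophages. Between the cDC groups limma called 0 of 18, where 2.04% of all named genes were, with 1 higher and 4 lower in CD8+ cDC at an unadjusted p under 0.05.

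**Figure D4:**
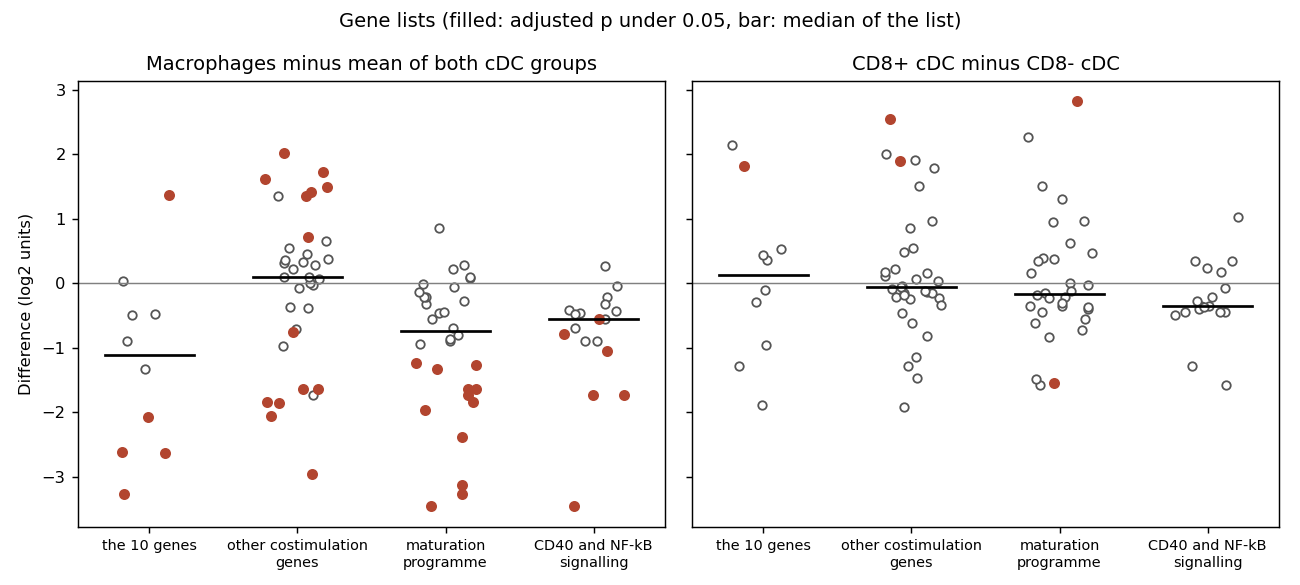
Differences (log2 units, vertical axis) of the 10 genes and of 3 lists of related genes, macrophages against both cDC groups on the left and CD8+ minus CD8- cDC on the right. Each circle is a gene, filled where adjusted p was under 0.05, and bars are medians; on the left the list medians are -1.12, 0.09, -0.74 and -0.56.

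The T cell receptors that these ligands engage were measured too, as a check on T cell RNA. Cd28 and Cd40lg were at background on all 6 arrays. Icos read 6.86 to 7.69 on all arrays without a call in any contrast. Ctla4 stood at 8.50 in CD8+ cDC replicate 1 and at 4.92 in replicate 2, with 4.59 to 6.06 elsewhere. The mean of the T cell markers was 5.93 in CD8+ cDC replicate 1 and 6.47 in macrophage replicate 1, where Ctla4 read 5.56. In every population both Ctla4 and the marker mean were higher in replicate 1 than in replicate 2. The array with the highest Ctla4 level was not the one with the highest marker mean. The source of the Ctla4 signal was not tested.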

How the data were processed

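The deposited values of 6 Illumina bead arrays were used as they came. They are log2 signals by the range of the values (4.25 to 14.5), a base the labels do not state, and their columns have nearly equal distributions (largest gap 0.0349 between sorted columns), so they appear to have been quantile-normalized by the authors. BeadStudio and limma are named, without roles, per the submitters' processing notes. The table of unnormalized signals was not used because its 12 value columns carry names that match no sample label, and no detection p entered. The array files give no read depth, and the number of arrays limits the precision.

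Probes were named by the platform annotation, in which 34885 of 45281 had 1 symbol. The brightest probe by the mean of all arrays stood for a gene. limma 3.58.1 in R 4.3.3 fitted 1 mean per population over all 6 arrays, with 3 residual degrees of freedom. P-values were adjusted by Benjamini-Hochberg over all 45281 probes, with no filter, and the steps were tested on simulated data. The background level is the 99th percentile of the values of presumed silent genes. The 10 genes, the lists and the tests were chosen with earlier results of these data known. Named genes were all 10 genes, up to 4 called genes with the largest differences per list and contrast, and the 3 most similar genes per gene; marker genes, and the T cell receptors Icos and Ctla4, were given as checks. Alternatives were a replicate block, a filter on dim probes, 2 other scalings, an intensity trend with robust eBayes, fits of 2 groups, the mean of all probes, a lower background level (95th percentile) and each array left out.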

Additional observations from a re-analysis of the deposited data

How the results depend on the processing

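With 2 arrays per population, several calls changed when single arrays were left out. Leaving out each array in turn, the number of the 10 genes called ranged from 3 to 6 in macrophages against the mean of cDC, from 0 to 2 between CD8+ and CD8- cDC (0 of all 19057 genes passed without any 1 cDC array), from 0 to 4 in macrophages against CD8+ cDC and from 1 to 5 against CD8- cDC. A population left with 1 array was assumed to vary like the others. In each of these fits fewer of all named genes were called than with all arrays. Called list members ranged from 8 to 14, 6 to 10 and 3 to 6 for costimulation, maturation and CD40 signalling genes, an alternative chosen after seeing the data. Between CD8+ and CD8- cDC, 1 gene was called in the main setting, 2 with the replicate block and 4 with only probes above background tested. With an intensity trend and robust eBayes there were 3, and 2 with the 2 groups alone. In the same order 2.04%, 1.99%, 7.52% (of 8927 genes tested), 4.44% and 0.918% of named genes were called, so the share over all genes moved as well. Small differences changed sign: Cd274 against the mean of cDC (-0.03, -0.09 and -0.08 without CD8+ cDC replicate 1, CD8- cDC replicate 1 and macrophage replicate 2), and, between the cDC groups, Cd40 (0.02 and 0.18) and Fscn1 (0.04 and 0.11), without CD8+ cDC replicate 1 and CD8- cDC replicate 2. Leaving out each array gave ranges of -0.09 to 0.16 for Cd274, -0.38 to 0.18 for Cd40 and -0.69 to 0.11 for Fscn1. The cause was not tested. Over 506 recomputed results of single genes, 445 kept sign and call, 31 lost and 23 gained a call, and 7 changed sign. The lower background level altered only minimum folds, as for Pdcd1lg2 against CD8- cDC (4.73 in place of 4.20). Replicate numbers are shared by all groups without a stated meaning. Replicate deviations correlated between groups at 0.387, 0.219 and 0.256 over 12471 probes, but 2 numbers are too few to show a pairing. With the block the counts of the 10 genes were 5, 2, 5 and 6 in the order of contrasts above, against 5, 1, 4 and 5 without it, the gains being Cd274.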
